A study of Mus musculus with 44 samples.

Results

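CTCF deserts are autosomal stretches of 300 kb or more that lie between neighbouring CTCF sites and hold no CTCF peak in either of 2 ChIP-seq peak lists, 1 from WT mouse embryonic stem cells (ESCs) and 1 from *Setdb1* KO ESCs. Peaks of both lists on the 19 autosomes were joined into sites where they overlapped by at least 1 bp, and the stretches before the first and after the last site of a chromosome were left out. The 43284 WT and 58087 *Setdb1* KO autosomal peaks made 59393 sites with 59374 gaps between them, of which 978 were deserts (1.65% of gaps). The deserts held 483 Mb, or 20.3% of all sequence in gaps. Both libraries came from TT2 ESCs of a C57BL/6/CBA F1 background, and the WT cells were a single clone. The labels give these cells the genotype WT and no treatment. In the other *Setdb1* was deleted in a conditional line with 800 nM (Z)-4-hydroxytamoxifen for 4 days, and the cells were collected on day 6. CTCF was precipitated from crosslinked, sonicated chromatin with a rabbit antibody. A single peak list per condition was used, and the further CTCF libraries of the series were not analysed here. There was therefore no replicate check and no test between conditions, and all intervals below are 95% intervals that cover counting error only. Peak lists hold no expression, so neither the loss of *Setdb1* nor the cell type could be checked in them. At sites with 1 peak in each list, the *Setdb1* KO pileup was a median of 1.36 times the WT pileup (40937 sites), while the lowest background was 2.1 fragments in WT and 2.19 in *Setdb1* KO.

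CTCF is a zinc finger protein that reads a long, directional DNA motif and marks insulators and the anchors of chromatin loops. Cohesin extrudes loops until it meets CTCF, and loop anchors tend to carry motifs that point towards each other across the loop. SETDB1 is the methyltransferase that places H3K9me3 over many repeats and silent genes. Long stretches without CTCF are known from gene-poor, AT-rich chromatin and from clusters of sensory receptor genes.

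To show what peaks inside long WT gaps and at the edges of deserts look like in sequence, 5 such sites with a motif near the summit are printed. Each is 61 bases of mm10, read 5′ to 3′ along the strand of its motif, with the 20 bases of the motif in capitals. The most frequent base at each position of the matrix, which was built from 1000 strong peaks of these lists, spelled TGGCCACCAGGGGGCGCTAG. The first and the second are peaks present only in *Setdb1* KO inside long WT gaps. The third and the fourth are among the strongest edges of deserts, and the fifth is the edge with the largest *Setdb1* KO to WT pileup ratio.
chr4:38507377-38507437, plus strand: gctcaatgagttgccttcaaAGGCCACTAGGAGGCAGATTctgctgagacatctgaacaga
chr15:14845173-14845233, minus strand: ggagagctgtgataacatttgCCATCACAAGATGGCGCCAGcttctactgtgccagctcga
chr7:62877243-62877303, plus strand: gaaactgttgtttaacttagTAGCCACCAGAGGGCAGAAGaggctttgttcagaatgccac
chr7:92027249-92027309, minus strand: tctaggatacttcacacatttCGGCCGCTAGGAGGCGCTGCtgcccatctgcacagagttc
chr14:40732053-40732113, minus strand: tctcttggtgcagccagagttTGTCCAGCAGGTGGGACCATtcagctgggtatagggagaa
Of the 20 motif positions, the peaks inside WT gaps each matched the most frequent base at 12. The edges matched at 15, 14 and 13, in the order printed.

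Deserts had a median length of 410.0 kb, with quartiles at 345 and 556 kb, against a median of 15.6 kb over all gaps. There were 323 deserts of 500 kb or more, 37 of 1 Mb or more and 7 of 1.5 Mb or more. The 3 shortest members measured 300.018, 300.167 and 300.174 kb, and the first and the last of these held the desmoglein genes *Dsg1c*, *Dsg1b* and *Dsg1a* and the transcriptional coactivator gene *Eya4*. The 3 longest gaps that missed the threshold measured 299.464, 299.378 and 299.236 kb, the last with the vomeronasal receptors *Vmn1r76* to *Vmn1r79*. Chromosome 1 had the most deserts (90). Deserts took the largest share of gap sequence on chromosomes 14 (28.6%) and 3 (26.0%), and the smallest on chromosomes 19 (9.65%) and 11 (11.2%). Chromosomes 14 and 3 carried 7.47 and 6.46 protein-coding genes per Mb and chromosomes 19 and 11 carried 12.5 and 14 per Mb. The chromosomes with the lowest and highest gene density were not at these extremes. Chromosome 12 (5.55 genes per Mb) had 20.6% of its gap sequence in deserts and chromosome 7 (14.4 per Mb) had 17.9%.

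**Figure D1:**
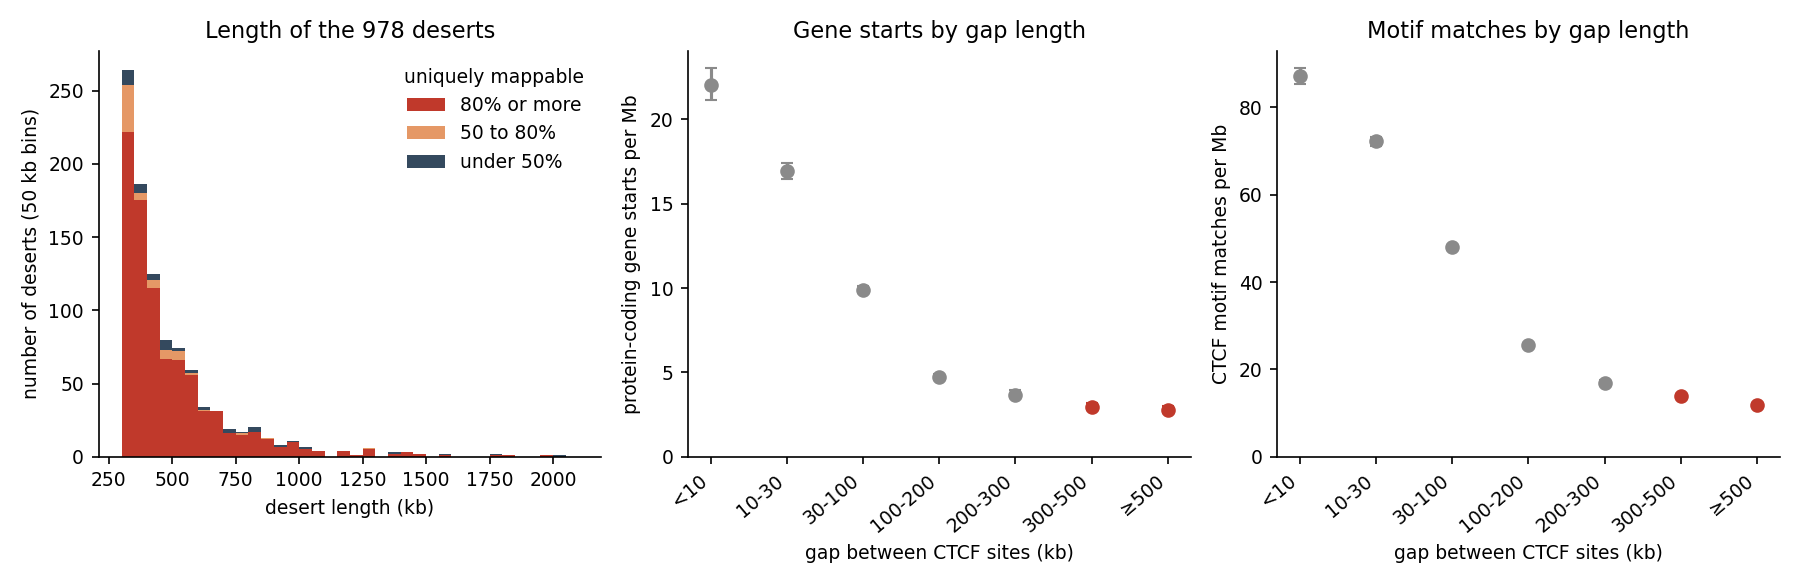
Left, number of deserts in 50 kb bins of length (kb), coloured by the share of their sequence that is uniquely mappable; middle and right, protein-coding gene starts per Mb and CTCF motif matches per Mb in gaps of 7 length classes (kb), with 95% Poisson intervals and deserts in red. Starts go from 22.1 per Mb in gaps under 10 kb to 2.78 in gaps of 500 kb or more, and motif matches from 87.2 to 11.8 per Mb.

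Reads that mapped to more than 1 place had been discarded, so a stretch of repeated sequence could show no peak whatever was bound there. Mappability was therefore measured as the share of 50-base words, sampled every 500 bp, that occur once in the genome. It was 83.2% in deserts and 90.6% in gaps under 300 kb. The members were grouped by the 50-base share with cuts set at 50 and 80%. In 870 deserts (428 Mb) 80% or more of the words were unique, in 60 deserts 50 to 80% were, and in 48 deserts (29.9 Mb) under 50% were. Among the 48 were deserts with as little as 0.625% unique words. Unknown bases occurred in 26 deserts and took over 10% of the sequence in 16. For the 48, absence of a peak and absence of mappable reads cannot be told apart. The limit reached beyond these members. With length counted in uniquely mappable bases only, 719 of the 978 deserts still measured 300 kb or more.

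The 15 longest deserts, all of 1.35 Mb or more, included members of low and of high unique share. The longest was chr7:8339720-10354673 (2.01 Mb), which held 14 protein-coding genes, vomeronasal receptors of the Vmn2r class such as *Vmn2r48* and *Vmn2r40* among them, and 18.7% unique words. The fourth, chr7:21070101-22855496 (1.79 Mb, 4.59% unique), held 45 protein-coding genes, 26 of them vomeronasal receptors of the Vmn1r class, the most gene starts of any desert. The sixth, chr2:175137137-176731136 (1.59 Mb, 1.57% unique, 22.0% unknown bases), held 24 genes, and *Zfp973* was among its 6 *Zfp* genes, which encode zinc finger proteins. The fifteenth, chr5:10648442-12000799 (1.35 Mb), held 13 genes and had 26.0% unique words. The other 11 were 84.9 to 90.7% unique and held no protein-coding gene (7 deserts) or 1 (4 deserts).

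The second longest desert, chr14:107889821-109840396 (1.95 Mb, 90.7% unique), held a single protein-coding gene, *Slitrk1*, which encodes a neuronal adhesion protein. *Grm8*, a metabotropic glutamate receptor, reached into chr6:26301879-27657540 (1.36 Mb). The start of *Celf2*, an RNA-binding splicing regulator, lay in chr2:6941982-8380245 (1.44 Mb), and that of *Flrt2*, an axon guidance protein, lay 3.50 kb inside chr12:94262366-95695725 (1.43 Mb). The third, chr4:29525458-31371890 (1.85 Mb), and the fifth, chr17:59557234-61320712 (1.76 Mb), overlapped no protein-coding gene. Also without one were chr6:74383821-75974390 (1.59 Mb), chr16:53477640-54973175 (1.496 Mb), chr5:54827468-56310841 (1.48 Mb), chr1:47891613-49319857 (1.43 Mb) and chr14:90462059-91826716 (1.36 Mb).

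Most deserts were poor in genes. Deserts overlapped 3.29 protein-coding genes per Mb (1590 genes), against 10.3 per Mb in gaps under 300 kb. Of the 978 deserts, 443 (45.3%) overlapped no protein-coding gene and 334 overlapped exactly 1. Counted by the start of the gene, 1388 of 20807 protein-coding genes (6.67%) lay in deserts, or 2.88 per Mb against 9.47 in shorter gaps. Long noncoding RNA genes followed the same direction, with 1.61 starts per Mb in deserts and 4.38 in shorter gaps (779 of 9426, 8.26%). The genes were unevenly spread over the members. Only 46 deserts held 10 or more starts, and these held 772 of the 1388. The 48 deserts with under 50% unique words held 13.9 starts per Mb (417 starts), while the 870 deserts with 80% or more held 1.52 per Mb (648 starts).

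Olfactory and vomeronasal receptors, which lie in tandem clusters, put more genes into deserts than any other list counted. Olfactory receptors, which detect odorants in the nose, had 376 of 1128 starts in 24 deserts (33.3%, 30.6 to 36.1), against 6.67% of all protein-coding genes. None of these 376 was in a desert with under 50% unique words, 194 were in deserts with 80% or more, and none was in one of the 337 deserts with over 90%. The desert with the most, chr2:111303304-112196859 (894 kb, 77.2% unique), held 34, *Olfr1307*, *Olfr1312* and *Olfr1280* among them. Vomeronasal receptors, which detect pheromones, had 158 of 327 starts in 23 deserts (48.3%, 43.0 to 53.7), 75 of them in deserts with under 50% unique words. Trace amine and bitter taste receptors had 18 of 50 starts in deserts (36%), and 17 of these lay in chr6:132659333-133171005 (512 kb), with *Tas2r117* and *Tas2r102*. Formyl peptide and Mas-related receptors, of inflammation and itch, had 5 of 27, and 4 of these, *Mrgprx2*, *Mrgprb1*, *Mrgprb2* and *Mrgprb3*, shared chr7:48423682-48728426 (305 kb). Genes within a cluster lie side by side, so the intervals understate the error of such shares.

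Clusters of immune and secreted proteins showed a wider range. The prolactin family, whose members are pituitary and placental hormones, had the highest share of all lists, 23 of 26 (88.5%), in 3 deserts. Of these, 15 genes with *Prl* itself lay in chr13:26935548-27622880 (687 kb, 87.5% unique), and 6 more, *Prl7a1* to *Prl2c1*, in the neighbouring desert (322 kb, 79.7% unique) on the far side of a single shared site. The other two, *Prl2c2* and *Prl2c5*, were in a desert of 302 kb with 44.4% unique words. Natural killer lectin-like receptors had 11 of 32, 10 of them in chr6:129825943-130614344 (788 kb), which held the *Klra* cluster. Skint genes, which shape skin T cells, had 6 of 11, with *Skint1*, *Skint3*, *Skint4* and *Skint7* in chr4:111963553-112385368 (422 kb), and *Skint6* and *Skint5* each in a desert of its own. Major urinary proteins and secretoglobins had 23 of 56, all 23 in deserts with under 50% unique words and 10 of them in chr7:32450083-33381560 (931 kb, 13.3% unique). Defensins, antimicrobial peptides, had 10 of 64, also all in such deserts, 9 of them in chr8:21155507-21502278 (347 kb, 17.0% unique). Keratin-associated proteins of hair had 10 of 57, all in chr16:88938706-89510861 (572 kb, 85.4% unique).

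Other gene families, counted by symbol, were near or below the share of all genes. Cytochromes P450 had 8 of 100 starts in deserts, 3 of them in chr5:145402106-145797504 (395 kb), and serpins had 2 of 60. Zinc finger genes with a *Zfp* symbol had 18 of 385 (4.68%, 2.98 to 7.27). Zinc finger genes under other symbols were not counted, so this share does not describe zinc finger clusters as a whole. Psg and Ceacam genes had 2 of 28. Clustered protocadherins, neuronal surface proteins whose promoter choice is known to use CTCF, had 0 of 57 (upper bound 6.31%). UDP glucuronosyltransferases and sulfotransferases had 0 of 43 (upper bound 8.20%), and ribosomal protein genes, chosen as housekeeping genes, had 0 of 84 (upper bound 4.37%).

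Giant genes, a short list chosen by name, are very large genes of tumour suppressor or giant protein type. They had 2 of 14 starts in deserts and 11 of 14 with any overlap. The list was not chosen by span, and *Fat4* in it spans 125 kb. Over all protein-coding genes, 7.64% overlapped a desert, and a long gene is more likely to do so whatever its family.

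**Figure D2:**
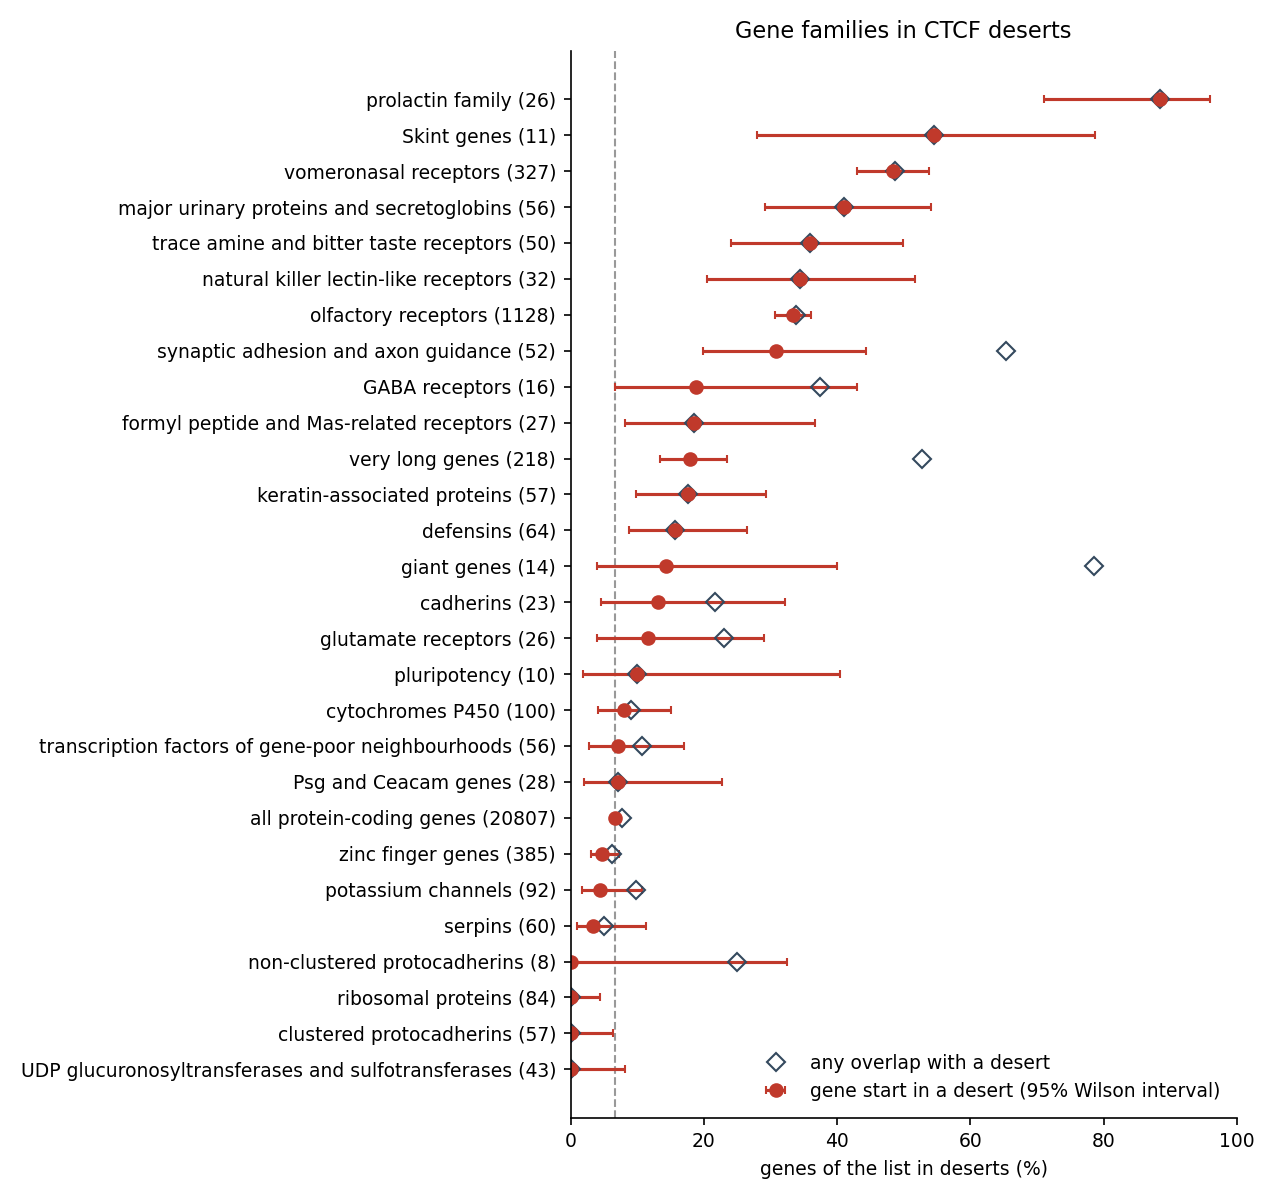
Percent of the genes of each list, with the number of genes in parentheses, that have their start in a desert (filled circles, 95% Wilson interval) or overlap a desert by any amount (open diamonds); the dashed line is the share of all protein-coding genes by start (6.67%). Prolactin, Skint and vomeronasal genes lie far to the right by both measures, while giant, very long and synaptic adhesion genes reach 78.6, 52.8 and 65.4% when any overlap counts, against 7.64% of all genes.

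Many very long genes reached into deserts. Of 218 protein-coding genes that span 500 kb or more, 39 (17.9%) started in a desert and 115 (52.8%) overlapped one. Any overlap includes the start and grows more likely with the span, so these shares are not comparable with each other. Deserts took 53.0 of the 188 Mb that these genes span (28.2%), against 20.3% of all sequence in gaps, and 50% or more of the span in 59 genes. Of the 978 deserts, 156 touched such a gene and 77 lay wholly inside one. The gene with the most desert sequence was *Ptprd*, a receptor tyrosine phosphatase of synapses, with 1476 of its 2271 kb (65.0%) in 4 deserts and 11 CTCF sites in the whole span. *Lrp1b*, a giant lipoprotein receptor, had 1468 kb in 3 deserts (71.3% of the span, 7 sites). *Fhit*, which spans a fragile site, had 1355 kb in 3 deserts (84.1%, 6 sites). In *Erbb4*, a neuregulin receptor, 2 deserts took 1033 kb or 96.0% of the span, which held 3 sites. *Nkain2*, *Macrod2*, *Lingo2*, *Cntnap2* and *Magi2* followed with 1061, 1058, 981, 958 and 941 kb. Of the genes named here, *Cntnap2* had the lowest desert share of its span (42.7%).

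Synaptic adhesion and axon guidance genes had 16 of 52 starts in deserts (30.8%, 19.9 to 44.3) and 34 of 52 (65.4%) with any overlap. Of the 16, 15 were in deserts with 80% or more unique words. The ephrin receptor gene *Epha7* lay wholly inside chr4:28809214-29113378 (304 kb, 95.9% unique), and its relative *Epha5* inside chr5:83778886-84706058 (927 kb, 93% unique). *Slitrk1* and *Slitrk6* also lay wholly in deserts, of 1951 and 864 kb. *Sema3a*, a secreted repellent of axons, had 460.2 of 477 kb in 1 desert. GABA receptor genes had 3 of 16 starts in deserts and 6 of 16 with any overlap. *Gabrg1* and 98.6% of *Gabra2* lay in a desert of 762 kb, and *Gabra4* and the start of *Gabrb1* in a desert of 313 kb. Glutamate receptors had 3 of 26 (6 with any overlap), cadherins 3 of 23 (5), potassium channels 4 of 92 (9) and non-clustered protocadherins 0 of 8 (2).

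Transcription factor genes of gene-poor neighbourhoods were mostly outside deserts, with 4 of 56 starts inside (7.14%, 2.81 to 17.0), close to the 6.67% of all genes. These were *Isl1*, a LIM homeobox gene of heart and motor neurons, in a desert of 859 kb with no other protein-coding gene, and *Dach1*, *Zfhx4* and *Tshz2* in deserts of 532, 519 and 328 kb. Of 10 pluripotency genes, only *Klf4* started in a desert. Its start lay 0.840 kb inside chr4:55531627-56222463 (691 kb, 94.6% unique), which held no other protein-coding gene, and the CTCF site next to the start, inside the gene, had fold enrichments of 11.3 in WT and 16.6 in *Setdb1* KO.

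The DNA of deserts differed from that of shorter gaps in base composition. GC was 38.3% in deserts and 42.8% in gaps under 300 kb, CpG dinucleotides were 5.60 and 9.15 per kb, and soft-masked repeats took 40.3 and 31.7%. CTCF motif matches were not absent. Deserts held 6163 matches, or 12.9 per Mb against 43.9 in shorter gaps, and 15.3 against 48.4 per uniquely mappable Mb. A stricter score was met 64 times in deserts, 0.133 per Mb against 0.389. A match is a stretch of letters and not a bound site, and peaks had set the gaps, so these densities are a description.

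Edges of deserts were weaker and more often present only in *Setdb1* KO than sites at large. The 978 deserts had 1805 edge sites, since 151 sites lay between 2 deserts. Of the 1805, 710 were present only in *Setdb1* KO (39.3%, 37.1 to 41.6), against 27.8% of all merged sites. Sites present only in WT made up 2.11% of edges (38 sites), against 2.38% of all. The median fold enrichment, the higher of both lists, was 7.61 at edges and 10.2 at all sites, and at sites shared by both lists it was 10.7 and 14.2. Of the edges, 41.6% (39.4 to 43.9) carried a CTCF motif no farther than 50 bp from the summit, against 55.8% of all sites. The share present only in *Setdb1* KO moved with strength. Among the weakest of 3 strength classes of equal size it was 71.1% at edges (67.8 to 74.2) and 68.0% at all sites, in the middle class 20.5% (17.8 to 23.6) and 15.0%, and in the strongest 0.709% (0.195 to 2.55) and 0.535%. The weakest class made up 43.3% of edges and the strongest 15.6%. The bounds of a desert were chosen by their spacing, so these shares too are a description.

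Sites between 2 deserts differed from sites at large in the same direction. They are part of the edges, and their intervals overlapped those of all edges. Of the 151, 70 were present only in *Setdb1* KO (46.4%, 38.6 to 54.3) and 52 had a motif (34.4%, 27.3 to 42.3), and their median fold enrichment was 6.67. Leaving a desert outwards, the next gap had a median of 85.2 kb, against 15.6 kb over all gaps. This median counts the sites between 2 deserts, where the next gap is itself a desert. Without those sites it was 62.3 kb, so edges bordered further sparse sequence.

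Edges lay far from promoters. Of the 1805, 1153 (63.9%) were intergenic and 123 (6.81%) within 1 kb of the start of an annotated transcript, against 39.8 and 13.8% of all sites, and 500 (27.7%) were in introns. The start of a transcript of a protein-coding gene was within 1 kb of 60 edges (3.32%, against 10.3% of all sites). From the lists of synaptic adhesion and transcription factor genes, 7 had such an edge. The highest fold enrichment was at *Sema3d*, a semaphorin gene, with 4.17 in WT and 12.5 in *Setdb1* KO and pileups of 29 and 39. At *Lsamp*, a neuronal adhesion gene, the values were 9.85 and 10.0 with pileups of 35 and 38, and at *Sema3c* 5.51 and 5.66 with pileups of 24 and 32. At *Ctnna2*, an alpha catenin gene, fold enrichment was 5.81 in WT and 4.89 in *Setdb1* KO while the pileup was 17 and 37, so these measures ran in opposite directions there. At *Ptprd* the peak was listed only in WT (5.49, pileup 16), and at *Isl1* and *Flrt2* only in *Setdb1* KO (5.55 and 3.45, pileups 26 and 10). The edge at *Flrt2* was at the start of an inner transcript, as the outermost start of the gene lay 3.50 kb inside the desert. None of these 7 edges held a motif within 50 bp of the summit.

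The 5 strongest edges were shared sites with a motif. The strongest, chr7:62876847-62877626, lay 53.6 kb from *A26c2*, with fold enrichments of 13.7 in WT and 36.7 in *Setdb1* KO and pileups of 61 and 116. It bounded its desert on the right with a motif on the plus strand, which points away from the desert. The next, chr7:92026952-92027559, lay in an intron of *Dlg2*, a synaptic scaffold gene, with 19.4 and 33.9 and pileups of 87 and 107, and its minus-strand motif pointed into the desert. The other three, 27 kb from *Rnpc3*, 514 kb from *Dsel* and 1035 kb from *Lrfn5*, had 15.1, 26.0 and 17.6 in WT and 33.7, 32.6 and 32.2 in *Setdb1* KO. All 5 were higher in *Setdb1* KO on both measures. Pileups were higher in *Setdb1* KO at sites at large too, with a median ratio of 1.36. The 5 were also ranked by the higher fold enrichment of both lists, so their direction is not a trait of strong edges.

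The *Setdb1* KO to WT pileup ratio had a median of 1.41 at the 1054 edges with 1 peak in each list, with quartiles at 1.21 and 1.66, against 1.36 at all such sites. The largest among the 787 edges with 50 or more fragments was 4.19 (2.40 to 7.74), at chr14:40731881-40732229, 81.7 kb from *Sh2d4b*, with pileups of 16 and 67. Next came 3.65 at an edge 115 kb from *Runx1t1*, 3.62 at 18.05 kb from *Vmn1r207-ps*, 3.47 at 7.34 kb from *Chst2* and 3.27 at 34.7 kb from *Tas2r144*. These 4 were 88.1 to 94.1% repeat-masked around the summit, and the one with the largest ratio was not masked at all. The smallest ratio was 0.706 (0.400 to 1.23), at an edge 608 kb from *Dcc* with pileups of 34 and 24. The next 4 were 0.757, 0.784, 0.786 and 0.806, and the interval of each of these 5 included 1. The lowest ratios were thus not distinguishable from equal pileups at this depth. Equal pileups are not the typical value, however, as the median over all such sites was 1.36. The upper bounds of the 5 were 1.23, 1.27, 1.31, 1.42 and 1.35, so only 1.42 exceeded that median. These 5 were picked as the lowest of 787, which the intervals do not allow for. At the edge with 0.784, in an intron of *Dab1*, fold enrichment ran the other way, with 5.28 in WT and 9.41 in *Setdb1* KO. At the other 4 of these 5 it was lower in *Setdb1* KO, as the pileup was.

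CTCF motifs at the edges of deserts pointed inwards more often than outwards. Of 803 edge positions with a motif, 484 had it pointing into the desert (60.3%, 56.8 to 63.6). Each motif between 2 gaps points into one of them and out of the other, so the share over all gaps was 50% by construction. It went from 47.9% in gaps under 10 kb (47.3 to 48.5) through 49.2, 52.3, 55.9 and 58.7% to 59.2% in gaps of 300 to 500 kb (55.0 to 63.2) and 62.6% in gaps of 500 kb or more (56.6 to 68.3). The intervals of the 3 longest classes overlapped, so no rise beyond 200 kb was detectable. Where both edges of a desert had a motif (170 deserts), they pointed towards each other in 57 (33.5%, 26.9 to 40.9) and away from each other in 27 (15.9%, 11.2 to 22.1). In gaps under 10 kb these shares were 21.1 and 25.9%. The share was similar in each class of edge. It was 59.2, 60.8 and 60.6% in the weakest, middle and strongest class, 61.4% at shared edges and 57.8% at edges present only in *Setdb1* KO, with every lower bound above 50%. In gaps under 30 kb it was 48.2 to 48.9% in the same classes. With the stricter motif the share was 58.5% of 94 positions (48.4 to 67.9), an interval that included 50%.

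**Figure D3:**
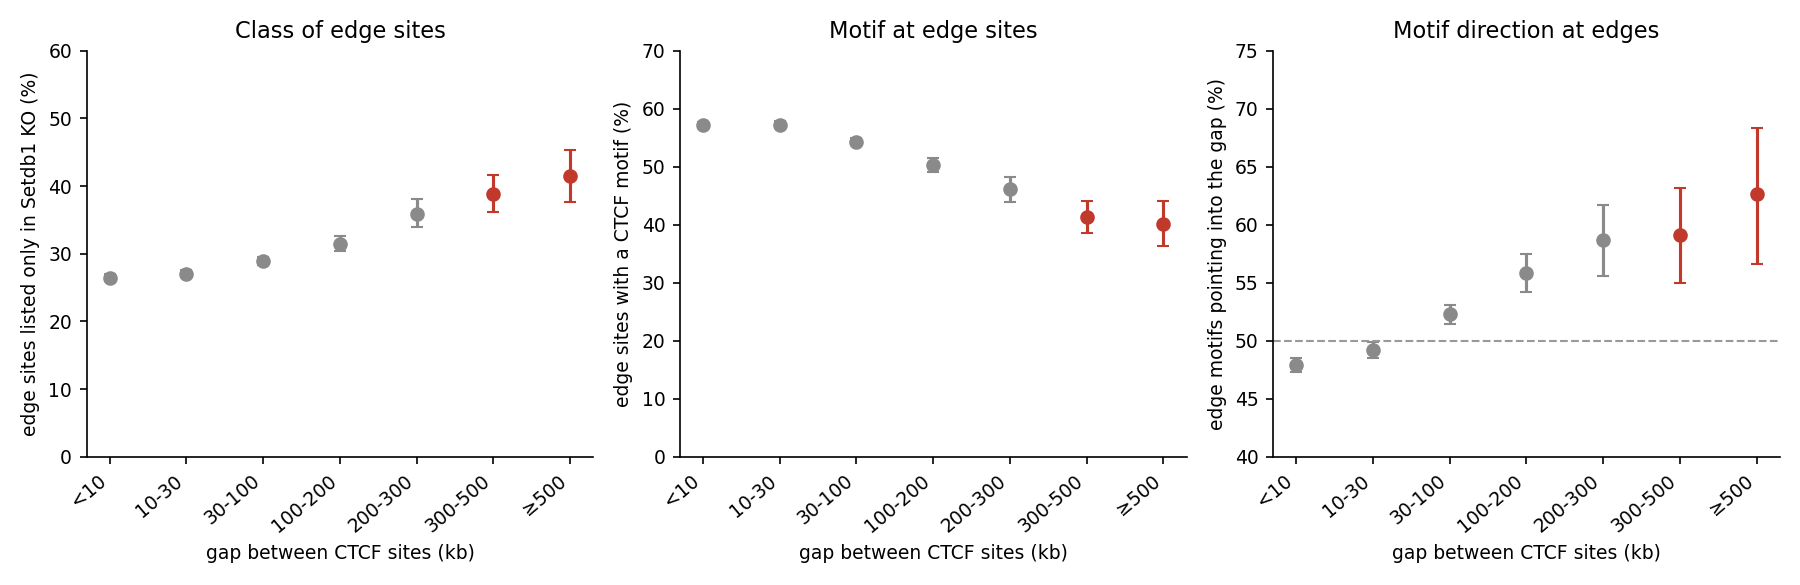
Percent of edge sites present only in *Setdb1* KO, percent with a CTCF motif within 50 bp of the summit, and percent of edge motifs that point into the gap (axis from 40 to 75%, dashed line at 50%), by length of the gap (kb), with 95% Wilson intervals and deserts in red. From gaps under 10 kb to gaps of 500 kb or more the values go from 26.5 to 41.5%, from 57.2 to 40.2% and from 47.9 to 62.6%.

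Many long gaps of the WT list were broken in *Setdb1* KO. The WT list alone had 1293 gaps of 300 kb or more (739.8 Mb, median 458 kb, longest 3.07 Mb), and the *Setdb1* KO list alone had 1005 (498 Mb, median 411 kb). Inside the WT gaps lay 1978 *Setdb1* KO peaks that overlapped no WT site, and they broke 924 of the gaps (71.5%, 68.9 to 73.9). Over all autosomal *Setdb1* KO peaks, 28.5% overlapped no WT site. Such a peak lay in 26.7% of all WT gaps and in 25.3% of those under 300 kb. A longer gap is more likely to hold a peak at any density. Of the 924, 402 were broken by 1 peak, 522 by more and 67 by 5 or more. A piece of 300 kb or more remained in 507, and none in 417. In the other direction 70 WT peaks that overlapped no *Setdb1* KO site broke 68 of the 1005 *Setdb1* KO gaps (6.77%, 5.37 to 8.49), and 3.26% of autosomal WT peaks overlapped no *Setdb1* KO site. With both lists cut to equal length by q, the broken share of WT gaps was 36%. It was 71.1% when the pileups and background of *Setdb1* KO peaks were divided by 1.36 and peaks short of the weakest p of the WT list were dropped, and 68.5% when the pileups alone were divided. Of 59698 *Setdb1* KO peaks on all chromosomes, the former kept 59378 and the latter 57626. The former thus removed few peaks and left little room for the share to move. Broken gaps had a median of 488 kb and unbroken ones 397 kb, with median unique shares of 88.1 and 88.3%.

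Long WT gaps were broken often although their density of new peaks was low. Gaps of 300 kb or more held 2.67 *Setdb1* KO-only peaks per Mb (2.56 to 2.79), against 8.84 in shorter WT gaps (8.70 to 8.99), a ratio of 0.302 (0.288 to 0.317). The density went from 20.7 per Mb in gaps under 10 kb to 2.36 in gaps of 500 kb or more, while the broken share went from 7.95 to 79.1%. Set against the motif matches within the gaps, the difference was smaller, with 5.35 peaks with a motif per 100 matches in long gaps and 6.14 in shorter ones. The peaks themselves were alike in strength, with a median fold enrichment of 5.13 in long gaps and 4.97 in shorter ones. A motif was present in 29.9% (27.9 to 31.9) and 36.8% (36.1 to 37.6), and the summit lay in a masked repeat in 36.8 and 42.1%. Of the 1978 peaks, 1248 (63.1%) were intergenic and 572 were in introns, and 93 had a fold enrichment of 10 or more.

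**Figure D4:**
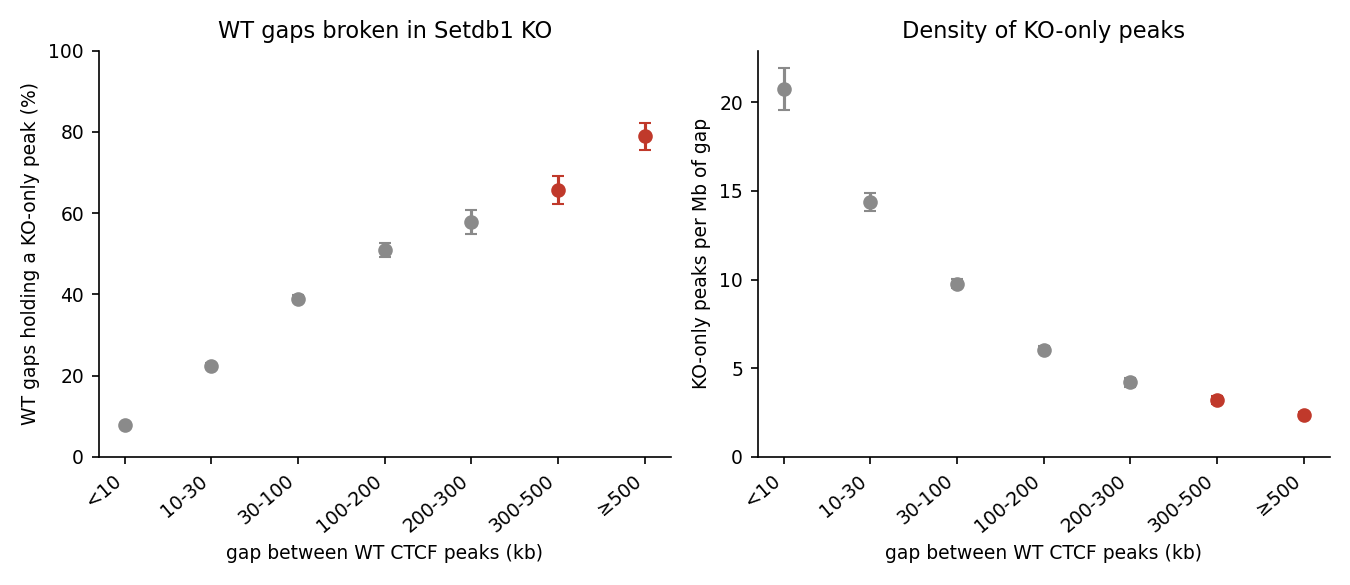
Percent of WT gaps that hold at least 1 *Setdb1* KO-only peak (95% Wilson interval) and number of such peaks per Mb of gap (95% Poisson interval), by length of the WT gap (kb), with gaps of 300 kb or more in red. The broken share goes from 7.95 to 79.1% while the density goes from 20.7 to 2.36 per Mb.

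Breaking changed how many genes lay in long gaps. By start, 2415 protein-coding genes were in long gaps of the WT list and 1388 in deserts of the merged lists, so 1027 (42.5%) were no longer in a desert once *Setdb1* KO peaks were added. The share was 279 of 655 (42.6%) for olfactory receptors and 71 of 229 (31.0%) for vomeronasal receptors. None of the 23 prolactin genes was lost in this way, and 17 of 27 keratin-associated genes were. For zinc finger genes it was 27 of 45, for cytochromes P450 12 of 20, for UDP glucuronosyltransferases and sulfotransferases 10 of 10 and for the transcription factor list 9 of 13. Members of a cluster share a gap, so these counts rest on few gaps. Added peaks can only take genes out of long gaps, so the direction of all these counts was fixed. Their size depends on the *Setdb1* KO list being the longer. With lists of equal length the broken share of WT gaps was 36% instead of 71.5%, and genes were not counted at that setting.

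The strongest breaking peak, chr4:38507162-38507599, lay near the middle of a WT gap of 2.17 Mb whose only protein-coding gene was *1700009N14Rik*. Its fold enrichment was 16.4 and its pileup 52, its motif was on the plus strand, and no repeat was masked at its summit. This gap held 7 other breaking peaks with fold enrichments from 3.60 to 7.21. On chromosome 15, chr15:14845001-14845372 (16.3, pileup 51) and chr15:17821675-17822029 (16.3, pileup 51) broke gaps of 459.9 and 684 kb without a protein-coding gene, and the cadherin genes *Cdh6* and *Cdh9* were nearest, at 1672 and 965 kb. The fourth, chr6:19878603-19879116 (16.3, 90.1% masked), broke a gap of 1.56 Mb with *Ankrd7* and *Lsm8*.

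Of the other six, 1 lay in an exon and the rest between genes. Peaks 178 kb from *Gpd2* and 358 kb from *Ptger4*, which encodes a prostaglandin receptor, had fold enrichments of 15.7 and 14.3 in gaps of 456 and 377 kb. A peak in an exon of *Npbwr1*, a neuropeptide receptor gene, had 14.4 and lay 2.29 kb from the edge of a gap of 711 kb that also held the opioid receptor gene *Oprk1*. A peak of 14.4 lay 53.3 kb from *Nectin3*, an adhesion gene, in a gap of 1.57 Mb, and 4.996 kb from *Cyp2c65* a peak of 14.4 lay in a gap of 862 kb over the *Cyp2c* cluster, where 66.4% of words were unique. The last, 15.0 kb from *Zfp987* (14.7, pileup 46), lay in a gap of 632 kb where only 11.6% of words were unique. Of these 10 strongest peaks, 8 had a motif.

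The WT gap cut into the most pieces was chr12:23759093-24364649 (606 kb), with 11 breaking peaks. It held *Gm10330* and *9030624G23Rik*, and 17.4% of its words were unique. Fold enrichments in it ranged from 3.76 to 11.3 and pileups from 11 to 35. Among the WT peaks that broke *Setdb1* KO gaps, the strongest was in an intron of *Khdrbs3*, an RNA-binding protein gene, with a fold enrichment of 11, a pileup of 33 and a motif. It lay 7.37 kb from the edge of a gap of 568 kb. The next 4, in an intron of the adhesion gene *Negr1*, 138 kb from the glutamate receptor gene *Grik2*, 68.3 kb from *Hsfy2* and in an exon of the matrix gene *Tnc*, had 7.72, 6.73, 6.69 and 6.46 and no motif.

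**Figure D5:**
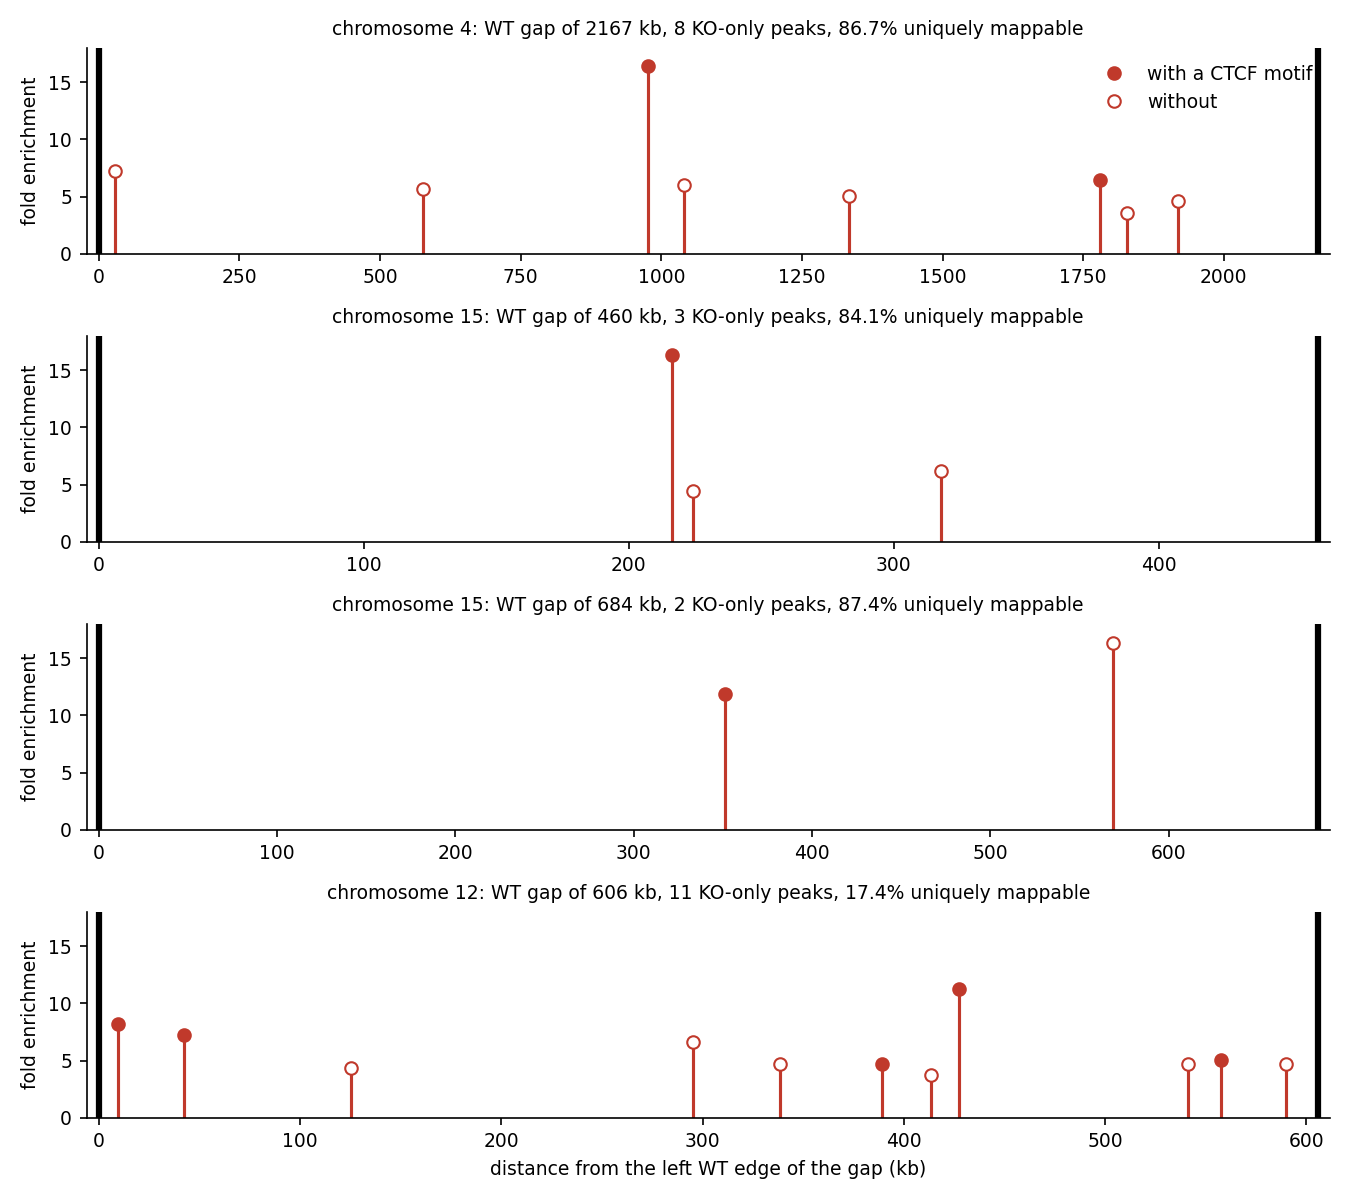
*Setdb1* KO-only peaks in 4 WT gaps, placed by distance from the left WT edge (kb), with fold enrichment as height; filled circles have a CTCF motif, and black bars are the edges. The upper 3 gaps hold the 3 strongest breaking peaks (16.4, 16.3 and 16.3), and the lowest is the gap with the most peaks (11).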

How the data were processed

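CTCF ChIP-seq peak lists of WT and *Setdb1* KO ESCs were used, 1 per condition. The authors placed reads on mm10 (GRCm38) using Bowtie 1.2 and discarded those without a single best place. After duplicate removal by Picard, they ran MACS2 2.1.0 for peaks. Whether an input library was used in peak calling is not given in the sources used here. The deposited lists give each summit's fold enrichment (a ratio over local background), its −log10 p and q, a score made from q, and the summit's offset. Exact read totals are not given, only a lower bound on uniquely mapped reads for all ChIP-seq libraries. Fragment pileups were solved from fold enrichment and p, which succeeded for 100% of WT and 99.99% of *Setdb1* KO peaks.

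Peaks overlapping by at least 1 bp were merged and gaps of 300 kb or more taken. Genes came from GENCODE vM21, sequence from GRCm38. Families were matched by gene symbol, so members under other symbols were not counted. The motif matrix (20 bp) came from 1000 strong shared peaks. A match scored above the 99th percentile of 101364 windows 1 kb from peaks, the stricter one above the 99.9th, on either strand. Motifs at sites were sought within 50 bp of the summit. Intervals are Wilson for shares, Poisson for densities and Clopper-Pearson for ratios. The merging, gap and pileup steps were tested on simulated data. Scripts ran in Python 3.11.15 with scipy 1.17.1, numpy 2.4.6 and pandas 2.3.3, and figures were drawn with matplotlib 3.10.9.

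Members, gene lists and alternatives were chosen with earlier results of these data known. Named were the 15 longest deserts, the 3 on each side of the threshold, the richest desert of each family with 5 or more starts, the 10 genes with the most desert sequence, list genes with an edge at the promoter, the 10 strongest breaking peaks, the most cut gap, the 5 strongest WT-only breaking peaks, and the 5 edges with the highest enrichment, largest ratio and smallest ratio (50 or more fragments). Other list genes, such as *Klf4*, *Epha7* and *Gabrg1*, were named after their values were seen. An item that the rule names is not reported here. Chromosome X and the other data types of the series were not analysed here.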

Additional observations from a re-analysis of the deposited data

How the results depend on the processing

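No paired analysis was possible because 1 peak list per condition was used and the results come from no test. The count of 978 deserts became 2040 with a threshold of 200 kb and 323 with 500 kb. It was 719 with length counted in uniquely mappable bases. The median length of 410.0 kb became 294 and 642 kb at these thresholds, 458 kb in the WT list alone, 429 kb with peaks of fold enrichment 5 or more and 442 kb with lists of equal length. Genes per Mb (3.29) were 2.57 counting genes wholly inside, 3.71 at 200 kb, 3.04 at 500 kb, 1.58 in deserts over 90% unique and 2.88 by start site, an alternative chosen after seeing the data. The unique share of 83.2% was 79.1% with 36-base words and 89.1% with 100-base words. Motif matches per Mb (12.9) were 0.133 with the stricter score and 15.3 per unique Mb. At edges, the share present only in *Setdb1* KO was 37.0% for gaps of 200 kb or more, and the median fold enrichment was 7.93 there and 8.24 with −log10 q of 5 or more. The broken share of WT gaps (71.5%) was 63.0% with breaking peaks of −log10 q of 5 or more, 52.6% with fold enrichment of 5 or more 36% with lists of equal length and, added after seeing the data, 68.5% with *Setdb1* KO pileups alone scaled to WT. The density ratio of 0.302 was 0.329 per unique Mb, 0.495 against gaps of 100 to 300 kb and 0.324 with −log10 q of 5 or more. The causes were not tested. Shares by start can only fall in deserts over 90% unique and only rise in long gaps of the WT list. Over all protein-coding genes they went from 6.67% to 0.697% and to 11.6%. Of 27 gene lists, 18 fell below their interval in the former and 15 rose above it in the latter.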
